A study of Mus musculus with 42 samples.

Results

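Lipogenesis is the making of new fatty acids from sugar carbon and their storage as triglyceride, and 10 mouse genes of this route are described here: Srebf1, Acly, Me1, Acaca, Fasn, Thrsp, Elovl6, Scd1, Gpam and Pnpla3. They were chosen by gene symbol among the 20018 named genes on the array, with no measured value in the rule but with earlier results of these data known. Of the 55681 probes on the array, 16 carried 1 of these symbols. The genes were measured in 3 tissues, liver, lung and forestomach, taken from male Muta™Mouse, which carry a lacZ transgene for mutation assays and were about 11 weeks old. By oral gavage the mice had been given benzo(k)fluoranthene (BkF), which belongs to the polycyclic aromatic hydrocarbons, in olive oil for 28 days. The doses were 0 (D0, olive oil alone), 25 (D1), 50 (D2) and 100 (D3) mg/kg-bw/day, and tissues were taken 72 h after the last dose. Liver was measured in 4, 2, 3 and 4 mice of D0 to D3, lung in 4, 3, 4 and 4 and forestomach in 4, 3, 4 and 3, for a total of 42 arrays from 15 mice, each array from 1 mouse.

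In the liver, insulin and sugar switch lipogenesis on after a meal. Srebf1 encodes the transcription factor SREBP-1, whose liver form is the main insulin-driven activator of the route. ATP citrate lyase (Acly) makes cytosolic acetyl-CoA, acetyl-CoA carboxylase (Acaca) turns it into malonyl-CoA, and fatty acid synthase (Fasn) builds palmitate with reducing power that malic enzyme (Me1) helps to supply. Thrsp, also called Spot 14, is a small protein that promotes fatty acid synthesis. Elovl6 lengthens palmitate, Scd1 makes monounsaturated fatty acids, Gpam attaches the first fatty acid to glycerol phosphate, and Pnpla3 is a lipid droplet protein switched on by SREBP-1. BkF binds the aryl hydrocarbon receptor (AhR), whose best known target is Cyp1a1. The question asked of these data was whether the route changed with dose in liver, and how it stood in lung and forestomach.

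Acaca, Acly, Fasn and Srebf1 lie on chromosome 11, Elovl6 on 3, Thrsp on 7, Me1 on 9, Pnpla3 on 15 and Gpam on 19. RefSeq promoter windows of GRCm38.p6, each 300 bases long and lying mostly before a transcription start, matched 9 of the 10 genes in 13 windows; Scd1 had no entry. The windows were searched on both strands for the letters CCAAT, for TCACNCCAC (a sterol element core), for CACGTG (an E box) and for TNGCGTG (an AhR element core), of which none overlapped another in these windows apart from CCAAT with itself. The letters CCAAT were present in 8 of the 13 windows, from 7 genes, against 37.4% of 32851 windows in the whole table. TNGCGTG was present in 1 window, of Gpam, against 5.07% of all windows. TCACNCCAC and CACGTG were in none of the 13, against 1.24% and 7.15% of all windows. Windows of 4 genes are shown, with the matched letters in capitals: Fasn and Thrsp carry CCAAT more than once just before the start, Acly carries it after the start, and Gpam holds the AhR element core. Fasn is chr11:120824498-120824797, Thrsp chr7:97417501-97417800, Acly chr11:100527951-100528250 and Gpam chr19:55099428-55099727, each on the minus strand and read 5′ to 3′. A match of letters is a description of the window, not a bound site.
Fasn: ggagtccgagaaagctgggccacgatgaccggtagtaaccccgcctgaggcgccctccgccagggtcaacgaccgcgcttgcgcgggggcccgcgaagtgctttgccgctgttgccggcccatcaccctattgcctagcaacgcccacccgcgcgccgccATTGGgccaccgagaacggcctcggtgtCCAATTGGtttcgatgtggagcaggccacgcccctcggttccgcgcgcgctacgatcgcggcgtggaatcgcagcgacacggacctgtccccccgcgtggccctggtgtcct
Thrsp: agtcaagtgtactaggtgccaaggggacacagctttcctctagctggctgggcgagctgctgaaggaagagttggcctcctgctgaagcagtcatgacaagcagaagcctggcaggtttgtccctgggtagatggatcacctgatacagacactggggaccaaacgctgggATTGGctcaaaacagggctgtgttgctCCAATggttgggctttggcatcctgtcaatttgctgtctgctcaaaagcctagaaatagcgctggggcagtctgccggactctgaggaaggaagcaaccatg
Acly: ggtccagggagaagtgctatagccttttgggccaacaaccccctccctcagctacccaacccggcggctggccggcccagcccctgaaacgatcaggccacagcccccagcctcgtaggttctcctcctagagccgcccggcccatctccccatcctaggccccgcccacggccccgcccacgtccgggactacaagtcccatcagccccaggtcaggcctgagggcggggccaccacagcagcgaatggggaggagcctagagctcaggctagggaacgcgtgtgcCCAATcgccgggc
Gpam: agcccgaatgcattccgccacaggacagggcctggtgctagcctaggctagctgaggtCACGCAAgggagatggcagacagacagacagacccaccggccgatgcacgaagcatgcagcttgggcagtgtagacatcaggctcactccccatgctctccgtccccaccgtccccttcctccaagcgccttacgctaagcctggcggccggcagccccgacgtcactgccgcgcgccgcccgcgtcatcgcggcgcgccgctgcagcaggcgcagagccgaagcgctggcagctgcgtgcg
In Fasn the matches began 90, 62 and 59 bases before the start, and the last 2 shared letters. In Thrsp they began 79 and 52 bases before the start, in Acly 38 bases after it, and in Gpam 192 bases before it.

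Every array compared 1 tissue sample in the red channel (Cy5) with a Universal Mouse Reference RNA from mouse cell lines in the green channel (Cy3). A level below is the log2 ratio of sample over reference after loess normalisation within the array, and a change is a difference of 2 group means on that scale. Ratios of different genes share no scale, because the reference holds a different amount of each transcript. Well above background were 38.4% to 57.6% of probes on the liver arrays, 40.6% to 60.0% on the lung arrays and 28.1% to 46.0% on the forestomach arrays, and no probe was saturated. All 8 hepatocyte markers were well above background in all 13 livers, all 7 alveolar type II cell markers in all lungs and 5 or 6 of 6 squamous epithelium markers in all forestomachs. Hepatocyte markers were also read in forestomach, where 3 to 8 of the 8 were well above background. Their mean was 0.38 to 3.05 in vehicle forestomachs and up to 3.78 over all 14, against 7.70 to 7.95 in vehicle livers. The part of such RNA in the tissue differences below was not tested. The liver of D3 mouse 17 stood apart: its 9 skeletal muscle markers had a mean log2 ratio of 3.66, against -0.84 to -0.60 in the other livers. White fat markers were also high in the livers of D3 mice 17 (3.22) and 20 (2.46), against 0.54 to 1.48 in the others. Cyp1a1, read as a check of exposure, was between -0.09 and 0.23 in vehicle livers, 3.73 to 7.15 at D2 and 2.62 to 7.05 at D3. At D1 it was 4.61 in mouse 8 but -0.02 in the library labelled D1 mouse 9, which is the vehicle level. Dose groups and array columns on the slides nearly coincided, so dose and array position cannot be told apart. The 10 spike-in controls were 0.52 to 0.88 lower in D2 and D3 livers than in vehicle livers on the normalised scale, so all changes are relative to the bulk of probes on an array. Tissues may hold several cell types, and fewer cells of a type cannot be told apart from less RNA per cell.

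No member was called in liver at any dose, where called means a limma adjusted p of at most 0.05 and at least 1.5-fold. At D3 the 10 changes lay between -0.18 (Scd1) and 0.29 (Elovl6), 6 above 0 and 4 below, with a median of 0.14 against -0.005 over all 30460 probes tested. At the same dose all 8 hepatocyte markers were below 0, with a median change of -0.38 and 5 of 8 at an unadjusted p under 0.05, and at D2 all 8 were below 0 with a median of -0.23. None of the 8 was called by limma at either dose, and their part in the members' values was not tested. Over all probes limma called 16 at D3, which is 0.0525%, and 13 at D2, which is 0.0427%. At D1 it called 0, or 0%. Of the members, 3 had an unadjusted p under 0.05 at D1, 2 at D2 and 0 at D3, beside 1.54%, 10.7% and 7.8% of all probes. At D3 the 95% intervals of the fit did not reach above 1.76-fold for any member. Downward, the lowest interval ends were 0.46-fold for Scd1 and 0.71-fold for Me1. Along the dose scale the members' slopes ran from -0.22 (Thrsp) to 0.24 (Elovl6) per 100 mg/kg-bw/day, and none passed the test. Without vehicle mouse 2 the Elovl6 slope was 0.11, and without D3 mouse 17 the Thrsp slope was -0.11. Nor did any other probe pass (0% called, and 8.61% at an unadjusted p under 0.05, where the members had 0).

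**Figure D1:**
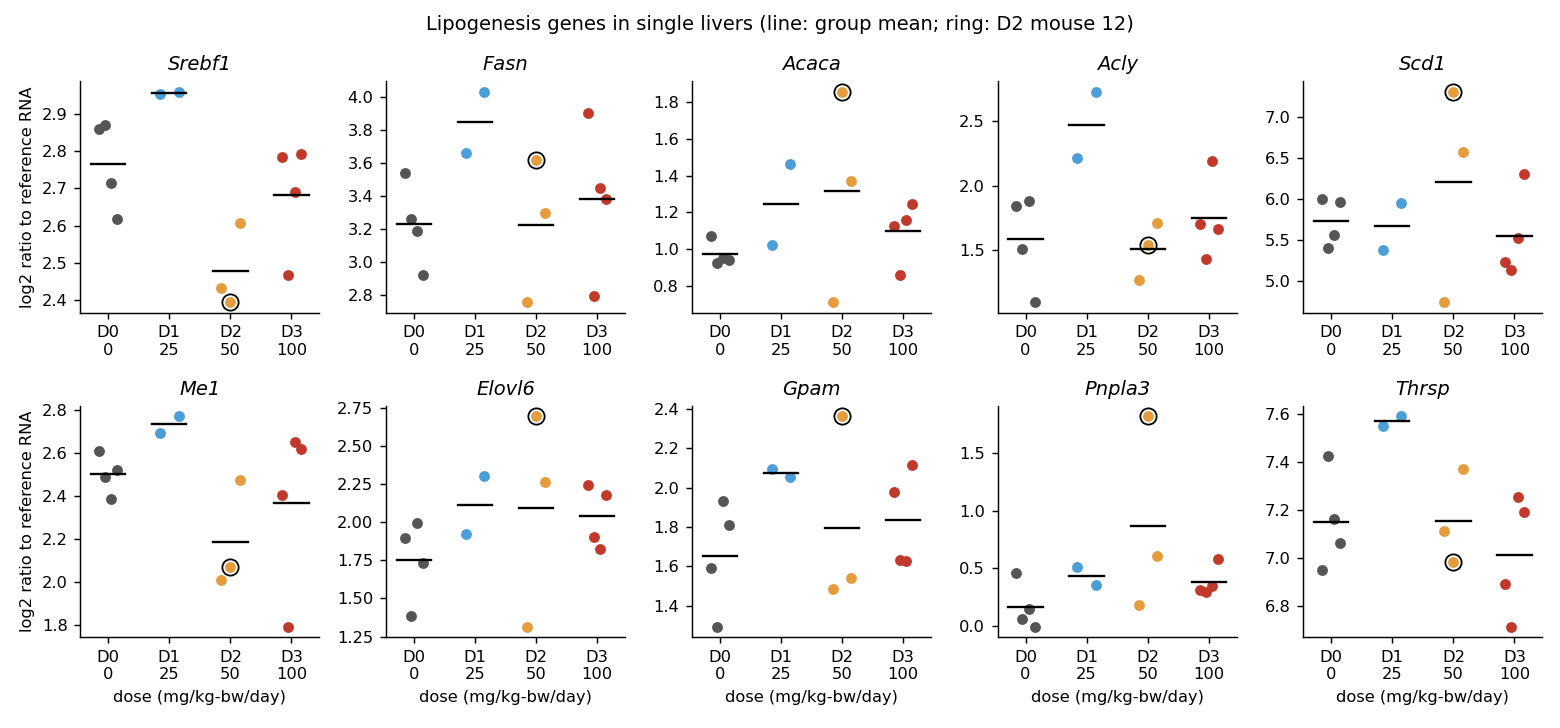
Each panel plots the log2 ratio to the reference RNA (y axis, scaled per gene) of 1 lipogenesis gene in single livers by dose in mg/kg-bw/day (x axis), with 4, 2, 3 and 4 mice in D0 to D3; lines are group means and the ring marks D2 mouse 12. Both D1 livers lie above all vehicle livers in 6 panels, and the ringed liver is highest of the 13 for Acaca, Scd1, Elovl6, Gpam and Pnpla3 and lowest for Srebf1.

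Srebf1 had the smallest spread of the members within groups, an SD of 0.12 log2 units. Its log2 ratio was 2.86, 2.87, 2.71 and 2.62 in the vehicle livers, 2.95 and 2.96 at D1, 2.43, 2.39 and 2.61 at D2, and 2.78, 2.47, 2.69 and 2.79 at D3. The 3 D2 livers thus lay below all 4 vehicle livers, the highest of them only just. The D2 change was -0.29 ± 0.11 (SE; limma unadjusted p 0.0214, adjusted p 0.391). Among all probes, 4.76% had all D2 livers below all vehicle livers, and Srebf1 was the only member to do so. At D3 the groups overlapped (change -0.08 ± 0.10). Within the slides the D2 change was -0.45 on slide 5 and -0.06 on slide 6.

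Acly and Me1, which feed carbon and reducing power into the route, had their highest group means at D1. Acly was 1.85, 1.51, 1.88 and 1.1 in the vehicle livers and 2.21 and 2.73 in the 2 D1 livers. It came back to 1.27, 1.54 and 1.71 at D2 and 1.70, 1.43, 2.19 and 1.67 at D3. The D1 difference was 0.89 ± 0.25, or 1.85-fold, with a limma unadjusted p of 0.0033 and an adjusted p of 1.00. Me1 was 2.61, 2.49, 2.39 and 2.52 in the vehicle livers, 2.69 and 2.77 at D1, 2.01, 2.07 and 2.47 at D2, and 2.41, 1.79, 2.65 and 2.62 at D3. Its lowest value was the D3 liver of mouse 17, the one with skeletal muscle markers. Without livers 17 and 20, left out after their markers were seen, its D3 change was 0.03 in place of -0.13, and the other 2 Me1 probes gave -0.009 and -0.003.

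Fasn and Thrsp, which serve palmitate synthesis itself, also had their highest group means at D1. Fasn was 3.54, 3.26, 3.19 and 2.93 in the vehicle livers and 3.66 and 4.03 at D1, a difference of 0.62 ± 0.28. At D3 it ranged from 2.80 to 3.90, wider than the vehicle group on both sides. Thrsp was between 6.95 and 7.42 in vehicle livers and 7.55 and 7.59 at D1 (difference 0.42 ± 0.17), then 6.99 to 7.37 at D2 and 6.72 to 7.26 at D3. Acaca was 0.97 ± 0.07 (SD, n = 4) in vehicle livers and 1.1 ± 0.17 (n = 4) at D3. Its 2 dimmer probes gave D3 changes of 0.08 and -0.32 where the main probe gave 0.12, and 1 of them gave -0.18 at D2 and a slope of -0.35 where the main probe gave 0.34 and 0.09, so no direction holds over its probes. The second Acly probe gave -0.05 at D3 where the main probe gave 0.16.

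Both D1 livers lay above all vehicle livers for Srebf1, Fasn, Acly, Me1, Gpam and Thrsp, 6 of 10 members, where 6.13% of all probes did so. These 6 comparisons rest on the same 2 livers. In them all 8 hepatocyte and all 5 macrophage markers had changes below 0, with medians of -0.11 and -0.47 and none called by limma. The part of these cell types in the D1 values was not tested. The larger value was in the library labelled D1 mouse 9 for Acly, Fasn, Me1, Srebf1 and Thrsp, the liver whose Cyp1a1 was at the vehicle level. The difference without mouse 9 was 0.63 for Acly and 0.43 for Fasn, and without mouse 8 it was 1.15 and 0.80. No member was called at D1 in either case, in fits where the 1 liver left at D1 is assumed to vary like the other groups.

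**Figure D2:**
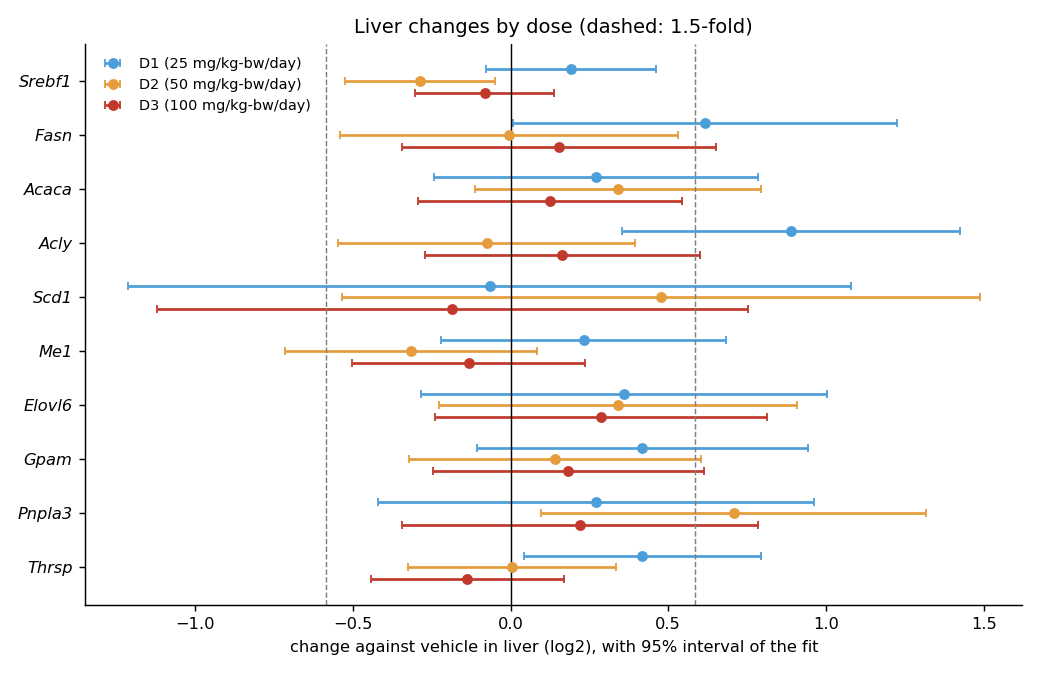
Points are changes against vehicle in liver (x axis, log2) of the 10 genes at D1, D2 and D3 from 1 limma fit over 13 livers, bars are 95% intervals of that fit, and dashed lines mark 1.5-fold. The D1 points of Acly, Fasn, Gpam and Thrsp lie between 0.42 and 0.89, and the D3 points all lie between -0.18 and 0.29.

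Of the members, Scd1, Pnpla3 and Elovl6 had the 3 largest SDs within dose groups of the liver, at 0.73, 0.43 and 0.40 log2 units. Scd1 was 6.0, 5.40, 5.55 and 5.96 in the vehicle livers and 5.37 and 5.95 at D1. At D2 it was 4.74, 7.31 and 6.57, the lowest and the 2 highest values of all 13 livers, and at D3 5.22, 5.13, 5.52 and 6.30. Its SD within groups was larger than that of 98.8% of probes in liver, where the median probe had 0.19. Elovl6 ranged from 1.38 to 1.99 in vehicle livers and was 1.31, 2.70 and 2.27 at D2. Gpam was 1.29 to 1.93 in vehicle livers and 1.49, 2.36 and 1.54 at D2. In within-group SD the members Fasn, Acaca, Acly, Elovl6, Gpam and Pnpla3 lay above 86.1% to 94.7% of probes, Me1 and Thrsp above 78.5% and 60.0%, and Srebf1 above 15.4%.

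Pnpla3 had the largest D2 difference, 0.71 ± 0.28 (limma unadjusted p 0.0263, adjusted p 0.409). Its values were 0.46, 0.06, 0.15 and -0.01 in vehicle livers, 0.18, 1.82 and 0.60 at D2 and 0.29 to 0.58 at D3, so the D2 mean turned on mouse 12. Without that liver the difference was 0.23. The probe was dim: 1 of 4 vehicle, 2 of 2 D1, 2 of 3 D2 and 3 of 4 D3 livers had it well above background, and the reference was above background on 3 of the 13 arrays.

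The liver of D2 mouse 12 stood apart in this route. It was the highest of the 13 livers for 5 members, Scd1 (7.31), Elovl6 (2.70), Gpam (2.36), Acaca (1.86) and Pnpla3 (1.82), and the lowest for Srebf1 (2.39). D1 mouse 9 was highest for the other 5, and D2 mouse 11 was lowest for 4. The mean of the members' centred log2 ratios was 0.41 in mouse 12 and -0.45 in mouse 11, so the 2 ends of the 13 livers lay in the same dose group. The same liver of mouse 12 had the highest Cyp1a1 (7.15) and the lowest Elovl3 ratio, 0.09 against 4.09 to 5.73 in the other 12 livers; Elovl3 encodes an elongase of long chain fatty acids. Its skeletal muscle (-0.84) and white fat (0.54) markers were the lowest of the livers, and so were its macrophage markers (3.19 against 3.39 to 4.48). Its 8 hepatocyte markers were all well above background but had a mean of 7.26, below the 7.70 to 7.95 of the vehicle livers and the third lowest of the 13. The part of these cell types in its values was not tested.

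Whether livers with more Srebf1 had more of its target genes was tested over the 13 livers with permutation tests of 100000 resamples, adjusted over 9 relations. Me1 went with Srebf1, with a Pearson r of 0.84 (permutation p 0.00027, adjusted 0.0024) and a Spearman rho of 0.77 (permutation p 0.0027, adjusted 0.024). On the other 2 Me1 probes r was 0.84 and 0.80. Acly, Fasn and Thrsp had r of 0.66, 0.62 and 0.60 (adjusted permutation p 0.057, 0.069 and 0.069), with rho of 0.61, 0.55 and 0.56 (adjusted 0.119 for each). The remaining 5 had r between -0.35 (Pnpla3) and 0.06 (Gpam), with adjusted permutation p of 0.488 to 0.899, and rho between -0.04 (Scd1) and 0.13 (Gpam), with adjusted permutation p of 0.979 for each.

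The relation with Me1 kept its sign in each check but not its call in all of them. Without the 2 livers farthest from the Srebf1 median, D2 mice 11 and 12, r was 0.76. It was 0.94 over the 7 livers of slide 5, 0.73 over the 6 of slide 6, and 0.76 on deviations from dose group means. With the ratios written by the scanner software it was 0.58, with an adjusted permutation p of 0.127, and no relation passed. For Acly, Fasn and Thrsp r without those 2 livers was 0.62, 0.78 and 0.63. Leaving out mouse 12 alone gave Fasn an r of 0.83 (adjusted permutation p 0.0041) and Acly 0.68 (0.041). Leaving out mouse 17, the liver with muscle and fat markers, lowered Acly, Fasn and Thrsp to 0.64, 0.55 and 0.51 (adjusted permutation p 0.109, 0.188 and 0.199), with Me1 at 0.85 (0.0088). Without mouse 12 the remaining 5 members had r of 0.26 (Pnpla3) to 0.51 (Acaca), with adjusted permutation p of 0.166 to 0.404, so their r near or below 0 turned on that liver. Both genes of a pair were read on the same array, so array effects are shared.

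**Figure D3:**
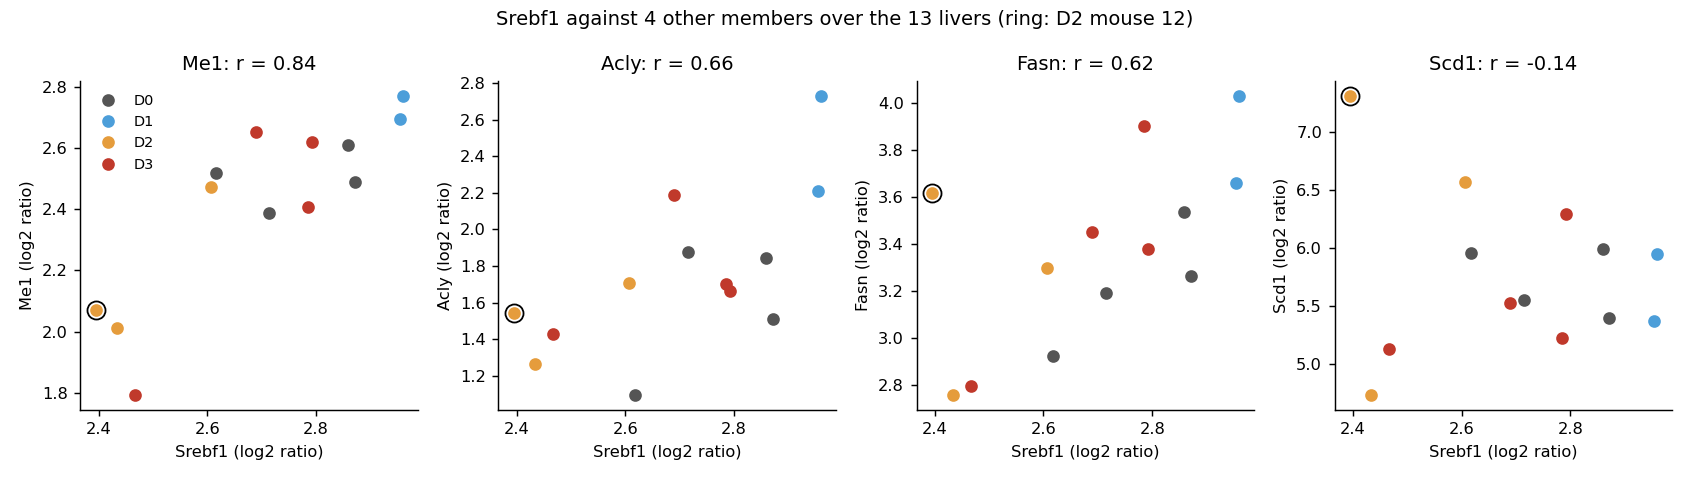
Each panel plots Srebf1 (x axis) against another member (y axis), both as log2 ratios to the reference, with 1 point for each of the 13 livers coloured by dose and a ring at D2 mouse 12. Me1 increases with Srebf1 (r 0.84), while Acly and Fasn (r 0.66 and 0.62) did not pass the test (adjusted permutation p 0.057 and 0.069). Nor did Scd1 (r -0.14, or 0.30 without the ringed liver), with that liver at the lowest Srebf1 and the highest Scd1.

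Among the pairs of members without Srebf1, the highest r over the 13 livers were those of Acaca with Elovl6 (0.88), Acaca with Scd1 (0.87), Acaca with Pnpla3 (0.84) and Elovl6 with Gpam (0.77). They are given as a description, and mouse 12 was the highest liver for all of these genes. Over 14197 named genes kept in liver, the patterns most like the mean of the 10 members were Acacb (r 0.93), Cndp2 (0.89), Avpi1 (0.87), Acss2 (0.86) and Selenot (0.84). Acacb encodes the mitochondrial form of acetyl-CoA carboxylase and Acss2 an enzyme that makes acetyl-CoA from acetate. The least like were Tk1 (-0.82), Aoah (-0.80), P2ry4 (-0.78), Cdc25b (-0.78) and Oas1d (-0.75).

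The wider pathway was read in 5 lists, in none of which was any gene called in liver at any dose. Of 18 tested regulators of lipogenesis, 6 were above 0 and 12 below at D3, with a median change of -0.03. The 2 largest changes were 0.75 ± 0.22 for Pparg, a nuclear receptor that drives fat storage, and -0.60 ± 0.33 for Irs2, an insulin receptor substrate. Pparg ran from -0.50 to 0.34 in vehicle livers and from 0.45 to 1.3 at D3 (limma adjusted p 0.406). Of 17 other fatty acid synthesis enzymes, 7 were above 0 and 10 below at D3 (median -0.08). Elovl3 changed most there, by -0.57 ± 0.87, and Scd2, another desaturase, by 0.38 ± 0.39. Of 7 genes of NADPH supply, 6 were above 0 at D3 (median 0.11), led by G6pdx, the first enzyme of the pentose phosphate pathway, at 0.54 ± 0.17, and Pgd, the third, at 0.31 ± 0.16. G6pdx was -3.70 to -3.46 in vehicle livers and -3.35 to -2.86 at D3 (limma adjusted p 0.447).

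Storage and sugar genes showed no shared direction. Of 23 genes of glycerolipid assembly and lipid droplets, 11 were above 0 and 12 below at D3 (median -0.01). Cidec, a lipid droplet protein abundant in fat tissue, had the largest fitted change, from values of 3.36 and 2.04 in D3 mice 17 and 20 and 0.70 and 0.31 in the other 2. It was well above background in 3 of 4 D3 livers and 0 of 4 vehicle livers, so the size of the fitted change, 1.17 ± 0.55, is uncertain. Those 2 livers were the ones with high white fat markers, and the part of such RNA in the change was not tested. Apob, the main protein of very low density lipoprotein, was 10.33 to 10.52 in vehicle livers and 9.54 to 10.20 at D3 (-0.66 ± 0.14, limma adjusted p 0.156). Of 10 genes of sugar use, 5 were above and 5 below 0 (median -0.01), with Pfkfb1 at 0.35 ± 0.17. Of 6 AhR target genes, 5 were above 0 at D3 with a median of 0.85, led by Cyp1a1 and Cyp1b1, which were well above background in all 4 D3 livers and in 0 of the 4 vehicle livers. On the normalised red channel, which was not tested, Cyp1a1 was at least 29.8-fold higher at D3. Cyp1b1 was at least 3.82-fold higher there, from measured means of 8.67 and 6.74. In the fit of log2 ratios these 2 genes had limma adjusted p of 0.130 and 0.337 and were not called.

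The tissues differed more clearly. In vehicle mice, 8 of 10 were called higher in liver than in lung, where 40.8% of 37087 probes were called in either direction. Thrsp was 5.37 ± 0.64 log2 units higher, Elovl6 3.65 ± 0.42, Scd1 2.26 ± 0.47, Me1 2.22 ± 0.16, Srebf1 1.90 ± 0.15, Fasn 1.64 ± 0.20, Gpam 1.32 ± 0.17 and Acly 0.67 ± 0.18 (limma adjusted p from 7.2e-14 to 0.0023). Acly lost its call without the vehicle liver of mouse 1 (0.58) or 3 (0.57). Acaca differed by 0.14 ± 0.21 and Pnpla3 by -0.11 ± 0.38, and neither passed. A dimmer Acaca probe was called, at 0.77 ± 0.16, and the second Pnpla3 probe gave 0.07, not called. Liver arrays lay on other slides than lung and forestomach arrays and were read by another version of the scanner software, so tissue and slide set cannot be told apart.

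Against forestomach, 6 members were called higher in vehicle liver and 2 lower, where 37.5% of 33079 probes were called. Scd1 was 6.0, 5.40, 5.55 and 5.96 in the vehicle livers and 0.01, -1.04, -0.56 and 0.98 in the forestomachs of the same mice, a difference of 5.88 ± 0.47. Thrsp, well above background in all 4 vehicle forestomachs but with its reference above background on only 4 of the 14 forestomach arrays, was 5.49 ± 0.64 higher, Fasn 2.99 ± 0.20, Srebf1 2.21 ± 0.15 and Acly 0.69 ± 0.18. In vehicle forestomach no array had Gpam well above background. On the normalised red channel it was at least 3.06-fold higher in liver, from means of 7.84 and 6.23. The fit of log2 ratios gave 1.57 ± 0.17 (limma adjusted p 1.1e-09), a little under that, so the bound depends on the scale. Red channel bounds are also open to dye bias, since no dyes were swapped. The limma adjusted p of the other 7 called members ran from 3.8e-15 to 0.0051. Acly lost its call without the vehicle forestomach of mouse 2 (0.58) and on the scale fitted between arrays (0.52).

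Elovl6 and Pnpla3 ran the other way. Elovl6 was 1.90, 1.38, 1.99 and 1.73 in the vehicle livers, 3.62, 2.83, 2.65 and 3.49 in the forestomachs and -1.96, -1.87, -2.09 and -1.65 in the lungs of the same 4 mice. It was 1.40 ± 0.42 lower in liver than in forestomach. Pnpla3 was 1.43, 2.98, 2.49 and 1.96 in the vehicle forestomachs and -0.01 to 0.46 in the livers. The fitted difference was -2.05 ± 0.38, but the probe was well above background in all 4 forestomachs and in 1 of the 4 livers, and the reference on 2 of 14 forestomach and 3 of 13 liver arrays, so its size is uncertain. Its second probe, well above background on no vehicle array, gave -0.11, so the difference rests on 1 probe. Me1, at 2.79 ± 0.26 in forestomach and 2.50 ± 0.09 in liver (SD, n = 4), and Acaca, at 0.98 ± 0.25 and 0.97 ± 0.07, were not called. A dimmer Acaca probe, above background in 2 of 4 vehicle forestomachs, was called higher in liver, at 0.61 ± 0.16 (limma adjusted p 0.0022), and the remaining probe gave 0.50, under 1.5-fold. On the scale fitted between arrays Me1 was called, at -0.72.

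**Figure D4:**
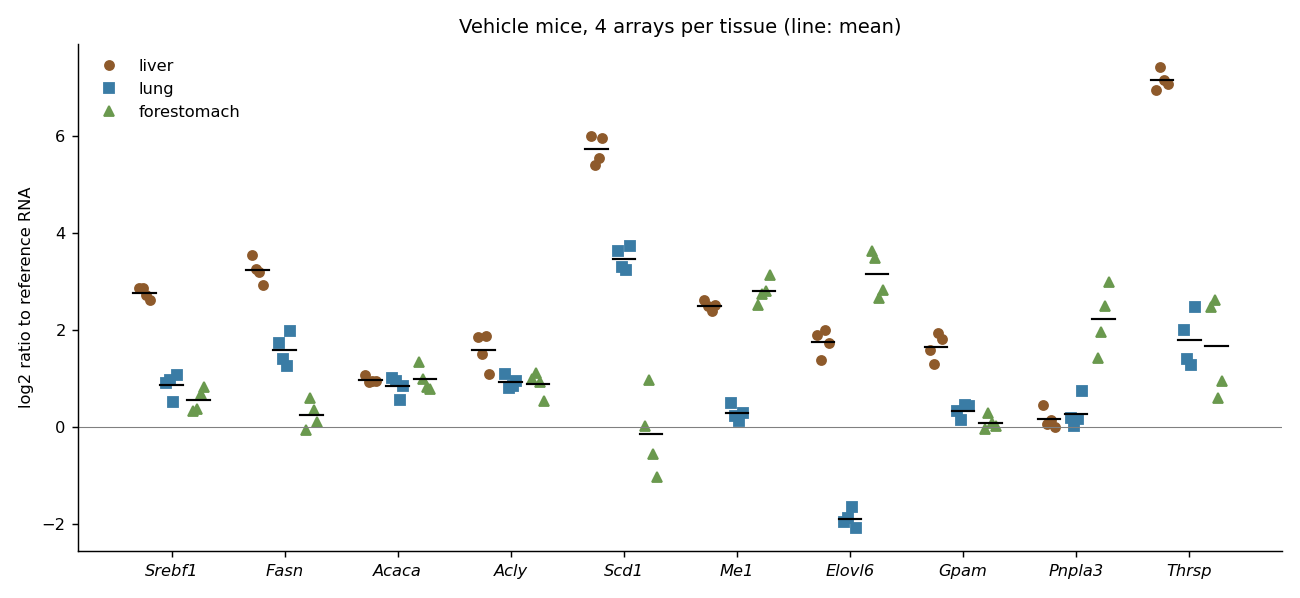
Points are log2 ratios to the reference (y axis) of the 10 genes (x axis) in liver, lung and forestomach of the 4 vehicle mice, and lines are means. Liver lies above both other tissues for Srebf1, Fasn, Acly, Scd1, Gpam and Thrsp on the means, and forestomach lies above liver for Elovl6 and Pnpla3.

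In lung, no member was called at D1 (0% of 32697 probes called), D2 (0.0153%) or D3 (0.0336%). Of 5 AhR targets tested in lung, 3 were called higher at D2 and 3 at D3. At an unadjusted p under 0.05 were 0, 2 and 2 members at D1, D2 and D3, beside 1.76%, 4.25% and 8.02% of all probes. Me1 was 0.50, 0.23, 0.29 and 0.12 in vehicle lungs and 0.92, 0.68, 0.71 and 0.85 at D3, so all 4 D3 lungs lay above all vehicle lungs. That order held for 2.94% of all probes and for 1 of the 10 members. The difference was 0.50 ± 0.15 (limma unadjusted p 0.0040, adjusted p 0.410), and the other 2 Me1 probes gave 0.48 and 0.44. Within each of the 4 slides, with 1 D3 and 1 vehicle lung each, it was 0.42, 0.45, 0.73 and 0.42. The spike-in controls were also higher in D3 lungs than in vehicle lungs, by 0.27 to 0.49, and whether this bears on the D3 differences in lung was not tested. Fasn was 1.73, 1.41, 1.99 and 1.25 in vehicle lungs, 1.91 to 2.32 at D2 and 1.78 to 2.25 at D3, with differences of 0.54 ± 0.17 and 0.47 ± 0.17 (adjusted p 0.919 and 0.469) and overlap in both. Scd1 at D3 was 4.18 in mouse 19 and 2.53 to 3.03 in the others, against 3.23 to 3.72 in vehicle lungs.

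Thrsp varied more between lungs than any other member, from 1.13 to 4.57, with a within-group SD of 0.99 log2 units. Its 4 highest values were 4.57 in D1 mouse 7, 3.91 in D2 mouse 15, 3.56 in D2 mouse 12 and 2.89 in D3 mouse 20. The mean log2 ratio of 8 white fat markers was highest in the same 4 lungs, at 3.52, 3.01, 3.07 and 2.52, against 0.31 to 1.83 in the other 11. Of the 8 markers 6 to 8 were well above background in those 4 lungs and 3 to 8 in the others, and Lep, which encodes the fat hormone leptin, was above background in 6 of the 15 lungs. Brown fat markers were highest in the same lungs, at 2.52, 2.60, 4.24 and 2.22, against 0.89 to 1.71 in the others. Other tissue markers stood out in 2 of these lungs. Mouse 7 had all 9 glandular stomach markers above background, with a mean of 3.94 against 0.09 to 1.09 in the other lungs, and mouse 12 had all 9 skeletal muscle markers (4.72 against -0.92 to -0.41) and all 5 macrophage markers (4.58 against 0.36 to 1.96). Squamous epithelium markers reached a mean of 2.69 in a D2 lung, against -0.51 to -0.19 in the lungs of the other doses. Up to 6 of these 6 markers were above background at D2 and up to 4 at the other doses. The part of RNA from these sources in the Thrsp values was not tested. The D2 change of Thrsp was 1.04 ± 0.61 with all lungs. Without mice 7, 12 and 15, a choice made after seeing the data, it was 0.12, and no member was called without them.

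In forestomach, where the main Gpam probe did not pass the filter, none of the 9 tested members was called at D1, D2 or D3 (0% of 25305 probes for every dose). Members with an unadjusted p under 0.05 numbered 5 at D1, 2 at D2 and 0 at D3, beside 12.1%, 7.59% and 2.2% of all probes. Elovl6 was 3.62, 2.83, 2.65 and 3.49 in vehicle forestomachs and 0.20, 0.62 and 2.00 at D1, a difference of -2.21 ± 0.62 (limma adjusted p 0.263). It was 2.84, 0.31, 1.88 and 1.08 at D2 and 2.95, 1.27 and 3.24 at D3. Acly was 0.54 to 1.1 in vehicle forestomachs and 0.18, 0.18 and 0.31 at D1 (-0.66 ± 0.18), and Acaca 0.79 to 1.33 and 0.11 to 0.46 (-0.68 ± 0.27). For these 3 of 9 members all D1 values lay below all vehicle values, as for 9.21% of all probes. White fat markers were also below the vehicle range, with a mean of 0.53 to 0.81 at D1 and 0.49 to 0.84 at D2 against 0.98 to 3.02 in vehicle forestomachs. All 6 that were tested were below 0 at D1 (median -1.27) and at D2 (median -1.29), and none was called by limma. Their part in the D1 differences was not tested. The Acaca difference was read on its main probe alone, since the other 2 were above background in none of the 3 D1 forestomachs, and 1 of them gave 0.03. For Me1 the main probe gave -0.41 at D1 and the other 2, above background on every array, 0.008 and 0.16, so no direction holds over its probes there.

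The forestomach arrays differed in glandular stomach RNA. The mean log2 ratio of 9 glandular stomach markers was 0.54 to 1.68 in 5 arrays (D0 mice 1 and 4, D2 mouse 11, D3 mice 16 and 20) and 5.04 to 6.29 in the other 9, among them all 3 D1 arrays. In those 9 every marker was well above background, including Atp4a and Atp4b of the acid pump. Elovl6 was 2.84 to 3.62 in the 5 arrays with low markers and 0.20 to 2.83 in the 9 with high markers. Within the 9, vehicle mice 2 and 3 were at 2.83 and 2.65 and the dosed mice at 0.20 to 2.00. That split was drawn after the marker values were seen and leaves only 2 vehicle arrays. The share of all probes with such an order was not computed, so no dose effect is read from it. With the marker score as a covariate the D1 change of Elovl6 was -1.43 in place of -2.21 and that of Acly -0.47 in place of -0.66 (limma adjusted p 0.742 for both). Scd1, Pnpla3 and Thrsp were highest in D3 mouse 16 (1.27, 3.75 and 4.68), the array with the highest white fat markers, 4.2 against 0.49 to 3.02 in the others, with Lep not well above background on any of the 14 arrays. The part of fat RNA in these values was not tested.

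**Figure D5:**
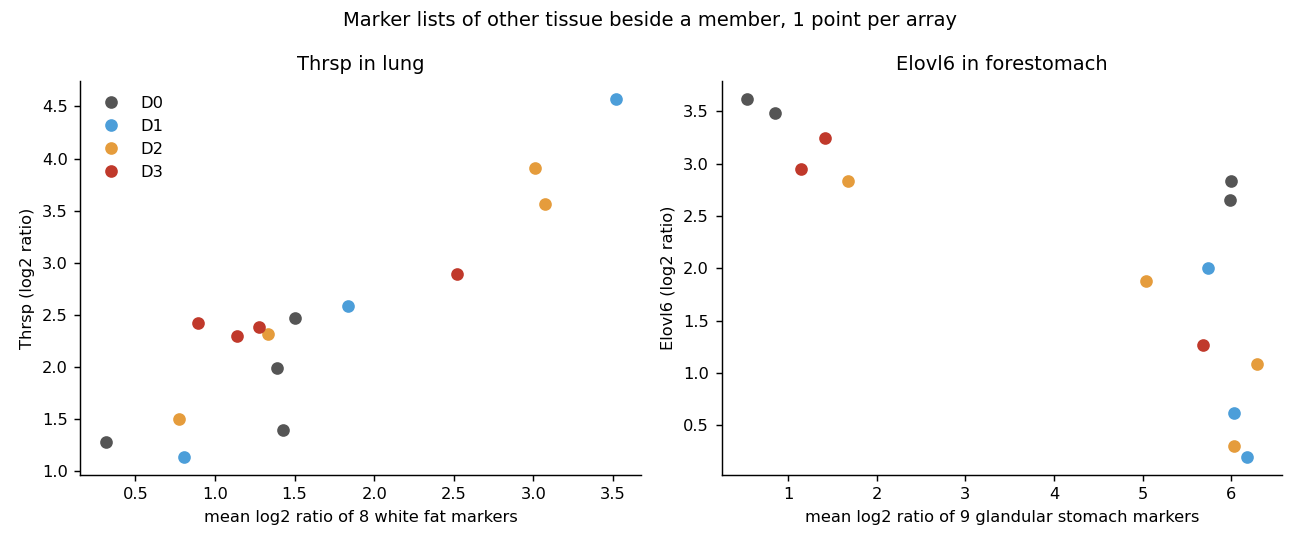
Left, Thrsp in 15 lungs (y axis, log2 ratio) against the mean log2 ratio of 8 white fat markers (x axis); right, Elovl6 in 14 forestomachs against that of 9 glandular stomach markers, with 1 point per array coloured by dose. The 4 lungs with the highest Thrsp are the 4 with the highest fat markers, and Elovl6 is 2.84 or more in all 5 forestomachs with glandular markers of 1.68 or less.

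The D3 change in liver was set against that in the other tissues in 1 fit over all arrays. No member was called for a difference in its D3 change between liver and lung (0.0153% of 26070 probes called) or between liver and forestomach (0% of 22686). The largest of the lung differences by p was Me1, at -0.64 ± 0.23 (limma unadjusted p 0.0096, adjusted p 0.783), the only member of 10 at an unadjusted p under 0.05, beside 5.32% of all probes. Against forestomach 0 of 9 members were at that level, beside 3.51% of probes, and the largest difference was Elovl6, at 0.95 ± 0.61. It was 0.34 without the forestomach of D3 mouse 17 and 0.34 to 1.33 over all arrays left out in turn.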

How the data were processed

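Per the file headers, each array was read at 2 colours by Agilent Feature Extraction (liver arrays by version 11.0.1.1, the other 2 tissues by 10.7.3.1), and the deposited spot intensities are not normalised. The members and gene lists were chosen with earlier results of these data known. Median red and green intensities without background subtraction, as in the study's methods, were turned into log2 ratios and normalised by loess within each array (limma 3.58.1, R 4.3.3). Loess sets most probes of an array near 0, so a change common to most genes is not seen. Control spots were given no weight, outlier spots (0.392%) were left out, and spots of one probe were averaged. Probes well above background on at least 2 liver, 3 lung or 3 forestomach arrays were kept: 30460, 32697 and 25305. All 10 members passed in liver and lung and 9 in forestomach; tissues were compared in vehicle mice over probes kept in either tissue. The brightest probe over the livers stood for a gene, and other probes of Acaca, Acly, Me1 and Pnpla3 differed from it in direction or call in 22 of 68 comparisons, of which those on stated results are given. The genes named from each further list were those called in liver at D2 or D3 and the 2 with the largest D3 change.

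Dose groups were tested against vehicle in 1 limma fit per tissue, and tissues in 1 fit over all arrays, with Benjamini-Hochberg adjustment over all probes. The study's permutation test in MAANOVA was not run here. Mice are the replicates. Tissues came from the same animals: same-mouse deviations had correlations of -0.20 to 0.18 between liver and lung (median 0.07, 13 mice), -0.21 to 0.10 between liver and forestomach (median 0.03, 12 mice) and -0.04 to 0.38 between lung and forestomach (median 0.15, 14 mice). The number of arrays limits the precision. Of the probes, 47.4% were named by matching their accessions to the RefSeq gene table of GRCm38.p6. The alternatives were the scanner software's deposited log10 ratio, normexp, scaling between arrays, other filters and probes, slide or mouse as a block, and each array left out. The authors' deposited log2 ratios, LOWESS-normalised by the authors, correlated with the loess-normalised ratios computed here at 0.994 to 0.999 in lung and forestomach but at -0.003 to 0.0003 in liver under the probe names given, and were used as an alternative for the first 2 tissues only. The model fits were tested on simulated data with independent normal noise. Those data held no arrays with markers of other tissue, so the test does not bear on such arrays here.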

Additional observations from a re-analysis of the deposited data

Results flagged for a closer look

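Single arrays far from the rest of their group were looked for in 70 groups, each of 4 arrays of 1 member at 1 dose in 1 tissue, and 3 were found, where chance alone gives about 1 in 20. Acaca in lung was lowest in D3 mouse 20, at a log2 ratio of 0.26 against 0.70 to 0.78 in the other 3 lungs. Acly in lung was highest in D2 mouse 12, at 1.58 against 0.75 to 0.89, in the lung that also had all 9 skeletal muscle markers above background. Scd1 in forestomach was lowest in D2 mouse 12, at -1.88 against -0.49 to -0.26; its 9 glandular stomach markers were all above background, as were those of D2 mice 13 and 15. The lung of D2 mouse 12 also had high white fat (3.07), brown fat (4.24) and macrophage (4.58) markers. Whether RNA from muscle or any of these sources had a part in the Acly value was not tested.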

How the results depend on the processing

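No member was called for any dose, the trend or a D3 difference between tissues under any setting, and 612 of 625 member changes under settings other than leaving out an array kept their direction and side of the threshold. The directions that turned belonged to small changes. In liver these were Thrsp at D2 with the scanner ratio (-0.42) and with scaling between arrays (-0.31), Fasn at D2 with normexp (0.0057), Scd1 at D1 with scaling (0.19), Acaca at D3 with the mean of its probes (-0.036), and Me1 at D3 without livers 17 and 20 (0.029), which were left out after seeing the data. Against vehicle forestomach, Acaca turned with the scanner ratio (0.17) and the mean of its probes (0.37). With each array left out in turn, changes that crossed 0 ranged from -0.35 to 0.22 for Scd1 at D1. At D2 they ranged from -0.20 to 0.23 for Fasn, -0.24 to 0.044 for Acly, -0.077 to 1.21 for Scd1, -0.14 to 0.30 for Gpam and -0.10 to 0.10 for Thrsp. At D3 they ranged from -0.019 to 0.35 for Fasn and -0.23 to 0.059 for Me1. Pnpla3 against lung ranged from -0.21 to 0.043 and Acaca against forestomach from -0.070 to 0.11, and 7 to 8 members were called in each of these tissue contrasts. Of the 9 relations with Srebf1, 1 passed in the main analysis, 0 with the scanner ratio, 3 without the liver of mouse 12 and 1 without that of mouse 17, omissions chosen after seeing the data. With the mouse number as a replicate block, 8 members were called against lung, 8 against forestomach and 0 for both D3 differences, so pairing changed no call. Calls over all probes moved more: 16 in liver at D3 became 9 to 46 in the planned settings, 2 to 22 with each liver left out in turn and 0 without livers 17 and 20, 13 at D2 became 1 with the slide as a block and 0 to 159 with each liver left out (159 without mouse 11), and 0 in forestomach at D1 became 333 when only those groups were fitted, none of them a member. In lung, 11 at D3 became 3 without mouse 2, 16 or 17, 26 without mouse 19, 26 with the slide as a block and 28 without lungs 7, 12 and 15, and 5 at D2 became 0 without mouse 2, 11 or 13, 8 without mouse 12 or 15 and 11 with the slide as a block. The cause of these shifts was not tested. In liver the authors' ratios could not be used. Pnpla3, near background in liver, was the member most limited by signal.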
